A study of Rattus norvegicus with 25 samples.

Results

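The basolateral amygdala (BLA) of rats that kept low anxiety-like behavior after a severe stressor (stress-low) was compared with that of rats that showed high anxiety-like behavior after the same stressor (stress-high). The comparison was made up of 6 of the 25 RNA-seq libraries of the study, taken by their library names: animals 22, 30 and 34 were stress-low and animals 7, 19 and 20 were stress-high. All animals were adult male Sprague Dawley rats and wild type. Both stress groups underwent 1 immobilization of 3 h together with predator scent (fox urine), were tested for avoidance and startle, and were killed on day 9 after stress. The groups were selected from the stressed animals by a composite score of anxiety-like behavior, which was 0 to 2 in stress-low and 13 to 15 in stress-high, so that the comparison describes animals that differed in outcome and not in treatment. Controls stayed in their home cages and scored 0 to 6. They give the background here and share the estimate of the spread, in 6 libraries after 1 of 7 was left out. Poly-A RNA came from 7 to 9 punches of 0.75 mm per hemisphere, cut from sections of 200 µm of the left BLA, so each library is bulk tissue of 1 animal with its neurons, glia, vessels and neighboring fiber tracts.

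The BLA is built mainly of glutamatergic projection neurons with a smaller set of GABAergic interneurons, and it attaches threat value to sensory input. Its activity is tuned by corticosteroids, by corticotropin-releasing hormone, by opioid and other neuropeptides, and by monoamines. The punch borders on the striatum and central amygdala, whose neurons are GABAergic and make enkephalin, on the myelinated external capsule, and on the endopiriform nucleus and piriform cortex. A marker gene that is higher in a bulk library may come from more cells of a type or from more RNA in each cell, and these cannot be told apart.

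Total expected counts of the 6 libraries were 13090880 to 22801247. Log2 levels of the genes tested below were alike between any 2 of the 6 libraries, with correlations across genes of 0.989 to 0.994. Pyramidal neuron genes were abundant in every one: Slc17a7, the main vesicular glutamate transporter of the cortex and BLA, measured 818 to 1107 TPM (a share of all transcripts, corrected for gene length), CAMK2A 755 to 904 TPM and the BLA-enriched Lmo3 151 to 189 TPM. The hypothalamic Otp and the choroid plexus gene Ttr were at or near 0. The library of stress-low animal 30 stood apart in the upward direction. It was above 2 times the median of the other 5 libraries for 167 of 13876 genes, against 41 to 115 genes in the others. The genes concerned included striatal markers, described below with the myelin markers, which were also highest in it. In the downward direction animal 22 had the most genes more than 2 times under the median of the others, 167, against 66 in animal 30. On the first principal component of the BLA libraries animal 30 (12.3) lay beside stress-high animal 20 (12.8). The remaining stress libraries lay at -14.1 to -8.74. The animal numbers of the stress groups do not interleave (7 to 20 against 22 to 34), while the controls lie on both sides. The study ran its rats in cohorts, but the labels do not give the cohort of an animal, so the part of cohort in the differences was not tested.

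No gene passed an adjusted p of 0.05 between stress-low and stress-high by edgeR, among 14953 genes tested (0% called), and none did by DESeq2. The smallest adjusted p was 0.9999 by edgeR and 0.575 by DESeq2, so every gene below is described by its values and its unadjusted p. An unadjusted p under 0.05 was reached by 286 genes, or 1.91% of those tested, 147 of them higher in stress-high (0.983% of tested genes) and 139 lower (0.93%). DESeq2 gave 221. Of the 286 genes, 161 had groups that did not overlap in TPM, and 168 also had an unadjusted p under 0.05 without animal 30. "Called" is used below for an unadjusted p under 0.05 and nothing more.

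Differences were small for most genes. The median absolute change was 0.07 on the log2 scale, the 5th and the 95th percentiles of the change were -0.30 and 0.30, and the median standard error was 0.12, so a typical difference was smaller than its own error. A change of either sign was almost equally frequent, with 50.2% of genes above 0. In TPM, the 3 stress-high values lay wholly above the 3 stress-low values in 163 genes (1.09%) and wholly below them in 702 (4.69%), a split that depended on the scale: with TMM-scaled counts (CPM) it was 500 (3.34%) against 503 (3.36%). With 3 libraries on each side an exact permutation test of 1 gene cannot go below p = 0.1, which is the value of each of these genes.

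**Figure D1:**
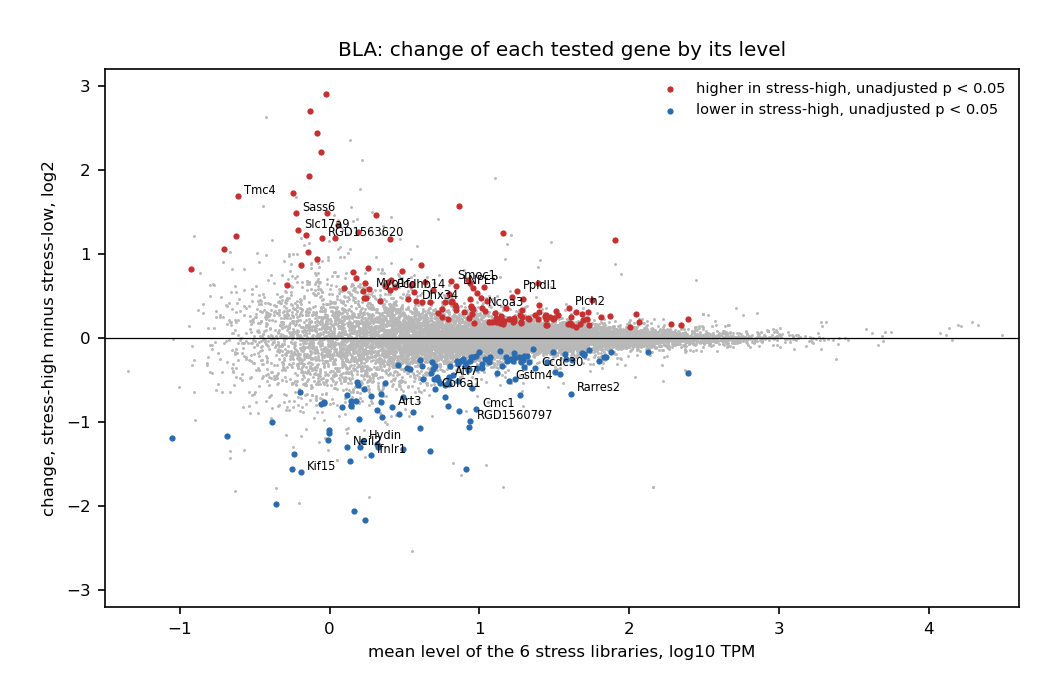
Change of each of the tested genes in the BLA (vertical axis, log2 of stress-high over stress-low from edgeR) against its mean level in the 6 stress libraries (horizontal axis, log10 TPM). Grey points are genes without and colored points genes with an unadjusted p under 0.05 (147 higher, 139 lower); the names mark the 12 named genes of smallest p in each direction, 8 genes lie outside the axes, and the spread narrows toward abundant genes.

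Among the genes that were lower in stress-high, those of smallest p included a motile cilium gene, matrix and secreted proteins and enzymes of detoxification and DNA repair. Values are given in the order animals 22, 30 and 34 for stress-low and 7, 19 and 20 for stress-high. Hydin (ENSRNOG00000017178), a protein of the axoneme of motile cilia, measured 2.97, 1.4 and 2.69 TPM in stress-low and 0.99, 0.82 and 1.13 TPM in stress-high, a log2 change of -1.22 (SE 0.30, unadjusted p = 0.00108), or 2.33 times lower. It had the smallest p of all genes. Its groups did not overlap, although animal 30 lay close to the stress-high animals. Of 12 markers of ependyma and cilia 6 were tested, and they had no call, 1 positive change (Tekt4), a median change of -0.11, and summed levels of 25.4, 26.5 and 23.1 TPM against 21.9, 24 and 20.1 TPM.

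Rarres2 (ENSRNOG00000024705), which encodes the secreted chemoattractant chemerin, measured 54.2, 48.3 and 49.1 TPM in stress-low and 27.7, 27.4 and 38.6 TPM in stress-high (log2 change -0.66, SE 0.20, unadjusted p = 0.0043). The lowest stress-low animal lay well above the highest stress-high animal. Gstm4, a glutathione S-transferase, measured 17.4, 22.4 and 16.9 TPM against 12.9, 13.5 and 11.8 TPM (log2 change -0.51, SE 0.14, unadjusted p = 0.00231). In Gstm4 all 3 stress-high values lay below the control range of 13.7 to 19.6 TPM. Neil2, a DNA glycosylase of base excision repair, measured 2.11, 1.66 and 1.73 TPM against 0.25, 0.95 and 1.11 TPM (log2 change -1.29, SE 0.41, unadjusted p = 0.00647). For this gene it was the stress-low animals that lay outside the controls, all above their range of 0.84 to 1.3 TPM.

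Cmc1, which takes part in the assembly of cytochrome c oxidase, measured 11.7, 11.7 and 13.5 TPM against 5.98, 5.53 and 8.64 TPM (log2 change -0.84, SE 0.28), again with every stress-low value above the controls. Col6a1, a chain of collagen VI, measured 6.51, 6.74 and 5.24 TPM against 3.5, 3.64 and 4.83 TPM (log2 change -0.61, SE 0.18). These groups did not overlap, but the gap between them was narrow in Col6a1. The transcription factor Atf7 was 6.8 to 7.96 TPM in stress-low and 4.22 to 6.18 TPM in stress-high (log2 change -0.47, SE 0.14). Ccdc30 was 25.5 to 28 TPM against 17.7 to 21.5 TPM (log2 change -0.36, SE 0.12). The other lower genes of smallest p were Art3 of the ADP-ribosyltransferase family (-0.81), the gene model RGD1560797 (-0.98), Ifnlr1, the receptor chain for lambda interferons (-1.39), and Kif15, a kinesin of the mitotic spindle (-1.59). The last pair was near the lower end of what was measured, with Kif15 at 0.82 to 1.15 TPM against 0.16 to 0.51 TPM.

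Genes higher in stress-high with the smallest p included a lipid-signaling enzyme, a nucleotide transporter, a coactivator and an aminopeptidase. Slc17a9 (ENSRNOG00000010275), the vesicular transporter that loads ATP and other nucleotides, measured 0.37, 0.37 and 0.36 TPM in stress-low and 0.95, 0.9 and 0.72 TPM in stress-high (log2 change 1.28, SE 0.34, unadjusted p = 0.00172), or 2.43 times higher. All stress-low values lay below the control range of 0.43 to 0.76 TPM and 2 of 3 stress-high values above it. Plch2, a phospholipase C of the eta class found in neurons, measured 33.3, 34.9 and 36.9 TPM against 36.8, 45.5 and 50.3 TPM (log2 change 0.36, SE 0.09, unadjusted p = 0.00124). Here animal 7 lay among the stress-low values. LNPEP (ENSRNOG00000047387), the aminopeptidase that cleaves oxytocin and vasopressin and travels with the glucose transporter GLUT4, measured 4.71, 6.03 and 6.09 TPM against 8.08, 8.51 and 8.65 TPM (log2 change 0.62, SE 0.18, unadjusted p = 0.00366).

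The stress-high values of LNPEP lay inside the control range of 6.59 to 11.1 TPM and the 3 stress-low values under it. Smoc1, a secreted matrix protein that limits BMP signaling, was 3.52 to 6.39 TPM in stress-low and 7.58 to 8.12 TPM in stress-high (log2 change 0.68, SE 0.20). Ppidl1, a cyclophilin-like gene, was 13.1 to 16.2 TPM against 18.8 to 21.9 TPM (log2 change 0.56, SE 0.15). Both groups were separate in both genes. Dhx34, a helicase of nonsense-mediated RNA decay, was 2.72 to 3.53 TPM against 3.52 to 4.78 TPM (log2 change 0.44, SE 0.15), with 1 overlapping pair of values. Myo1f, a class I myosin known from immune cells, was 1.48 to 1.55 TPM against 1.98 to 2.38 TPM (log2 change 0.59, SE 0.19). The remaining higher genes of smallest p were the gene model RGD1563620 (1.18), the centriole assembly factor Sass6 (1.49) and Tmc4 of the transmembrane channel-like family (1.69). Tmc4 was the lowest of all, at 0.08 to 0.16 TPM against 0.23 to 0.45 TPM.

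Across these 24 genes, the control mean lay between the means of the 2 stress groups in 23, all but LNPEP. All 3 stress-low libraries lay outside the control range in 5 of them (Slc17a9, LNPEP, Neil2, Tmc4 and Cmc1) and all 3 stress-high libraries in 1 (Gstm4). The 24 genes were picked for the difference between the stress groups, so their place against the controls is a description. Of the 24, 12 kept an unadjusted p under 0.05 in every alternative analysis: Hydin, Gstm4, Neil2 and Ccdc30 among those lower in stress-high, and Slc17a9, Plch2, Ncoa3, Ppidl1, Smoc1, Myo1f, Pcdhb14 and RGD1563620 among those higher. Without animal 30 the p of Ifnlr1 was 0.0579 and that of Tmc4 0.0503.

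**Figure D2:**
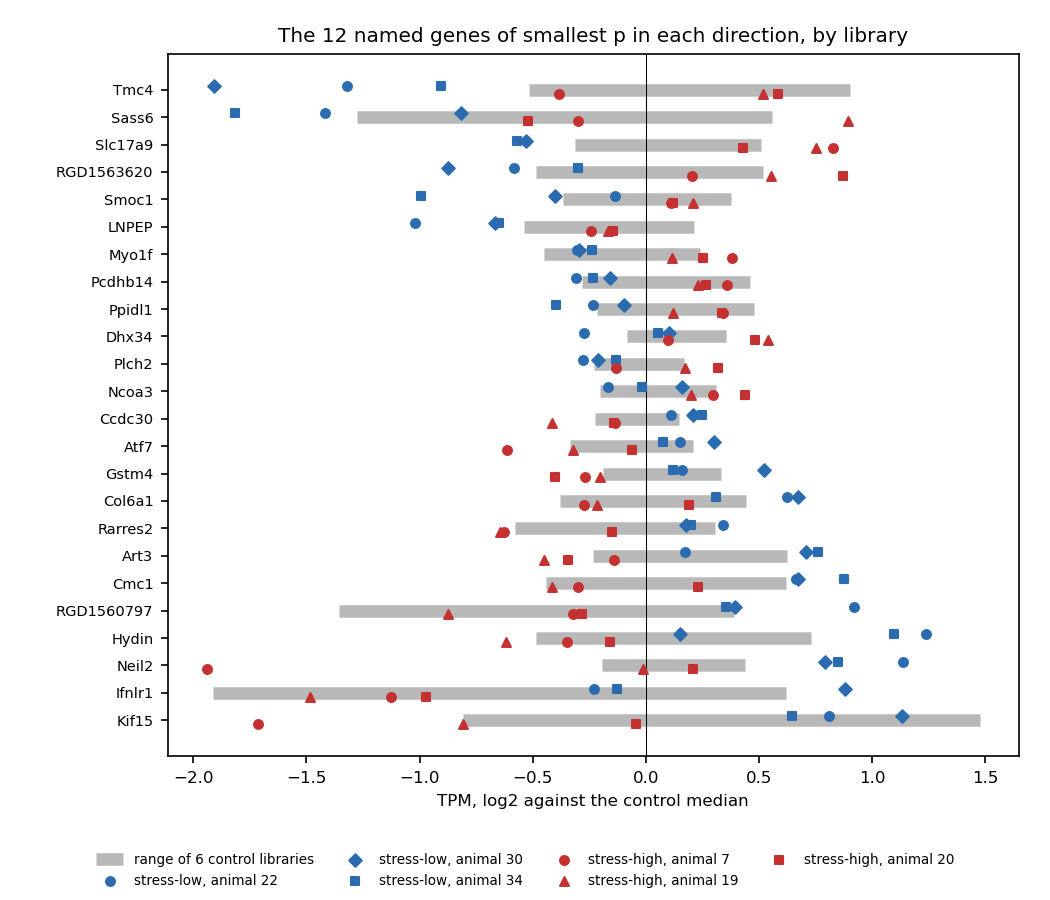
TPM of the 12 named genes of smallest p in each direction, as log2 against the control median (horizontal axis), 1 gene per line. Blue symbols are the 3 stress-low animals, red symbols the 3 stress-high animals and grey bars the range of the 6 controls; in Gstm4 every stress-high animal lies below the controls, and in Slc17a9, LNPEP and Tmc4 every stress-low animal lies below them.

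Markers of 17 cell types were described next, with 258 genes tested. Of these, 2 were called higher (0.775%, against 0.983% of all genes) and 4 lower (1.55%, against 0.93%), and 12 of the lists had no call. Glutamatergic neuron markers overlapped between the groups: summed TPM of 19 markers was 4404, 3885 and 4406 in stress-low and 3772, 4141 and 4406 in stress-high, with a median change of 0.05. The positive changes were 12 of 19 with all libraries and 7 of 19 without animal 30. The median without animal 30 was -0.07, and Nptx1 and Grp were called lower. Interneuron markers summed to 2129, 2409 and 2298 TPM against 2195, 2278 and 2500 TPM. Of 29 tested, 20 had a positive change, with a median of 0.10, and 1 was called: Sox6, a transcription factor of interneurons from the medial ganglionic eminence and also of oligodendrocyte progenitors, measured 5.18, 7.41 and 5.89 TPM against 7.38, 7.53 and 8.29 TPM (log2 change 0.37, SE 0.14, unadjusted p = 0.0161). Sst, the somatostatin gene, was at 399 to 460 TPM against 417 to 494 TPM, and Gad1, which makes GABA, at 149 to 245 TPM against 161 to 219 TPM, both with wide overlap. Without animal 30, 18 of the 29 changes were positive (median 0.13) and 6 were called, with Sox6, Gad2, Erbb4, Slc32a1 and Tac1 higher and Kit lower, against 3.80% of all genes in that analysis.

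Astrocyte markers (20 genes, no call) had a median change of 0.004, and S100b, a calcium-binding protein of astrocytes, was 855 to 979 TPM against 872 to 950 TPM. Microglia markers (22 genes, no call) had a median of 0.03 and summed to 609, 665 and 654 TPM against 653, 590 and 649 TPM. The groups overlapped in both lists. Markers of piriform, endopiriform and claustral neurons (10 genes, no call) summed to 3474, 2459 and 3166 TPM against 2586, 2266 and 2599 TPM, mostly through the imprinted gene Nnat (3103, 2076 and 2804 against 2266, 1900 and 2200 TPM). Markers of medial amygdala and hypothalamus (10 tested) and of the dentate gyrus and hippocampus (9 tested) had no call. Endothelial markers (20 genes) and mural cell markers (12 genes) had no call and medians of 0.03 and -0.15. Among 7 hemoglobin and erythrocyte genes, Hbb-b1 was called higher, at 44.9, 56.6 and 45.3 TPM against 68, 61.3 and 63.7 TPM (log2 change 0.45, SE 0.18), while Hba1, Hba2 and Hbb had changes of 0.12, 0.03 and 0.16. The hemoglobin genes are near-identical copies among which reads can be split, so the difference within that family is uncertain, and blood left in the punch was not tested.

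Markers of the leptomeninges and of fibroblasts gave 2 calls among 22 genes, both lower: Rarres2, described above, and Igf2, an insulin-like growth factor made by the meninges and choroid plexus, at 6.46, 7.57 and 5.33 TPM against 3.2, 3.81 and 6.17 TPM (log2 change -0.54, SE 0.21, unadjusted p = 0.0204). The sum of the list was 226, 282 and 226 TPM in stress-low and 221, 223 and 216 TPM in stress-high, separate but only just, and it overlapped in CPM. The defining markers Dcn and Lum, small proteoglycans of fibroblasts, did not separate the groups: Dcn was 4.88 to 6.16 TPM against 3.97 to 6.31 TPM and Lum 2.1 to 4.11 TPM against 0.96 to 7.64 TPM. Animal 30 was the highest library for 13 of the 22 markers. Without it the positive changes went from 8 to 13 and the median from -0.07 to 0.19, Rarres2 remained called, Igf2 did not (unadjusted p = 0.0733), and Igfbp2 was called higher. Of all genes, 3.80% were called without this library. The share of meningeal tissue in the punches was not tested. Choroid plexus markers summed to 46.6, 69.9 and 46.2 TPM against 42.4, 46.9 and 51.2 TPM with no call. Most of that sum was Enpp2 (41.1, 63.5 and 41.7 against 37.4, 41 and 45.6 TPM), which is also on the myelin list below. The sum therefore says little about choroid plexus. Perivascular macrophage and leukocyte markers (9 tested) had no call either.

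Myelin and striatal markers separated 1 library and not the groups. Summed TPM of 24 myelin markers was 3915, 5713 and 3683 in stress-low and 3815, 4372 and 4159 in stress-high, and 3145 to 4262 in controls, and all 24 markers were highest in animal 30. MBP, the myelin basic protein gene, measured 1404, 2101 and 1378 TPM against 1410, 1642 and 1530 TPM. With all libraries 4 of the 24 changes were positive (median -0.08), and without animal 30 this turned to 19 of 24 (median 0.06). The called member, Pllp, was 50.9, 61.3 and 50.7 TPM against 41.2, 48.4 and 48.4 TPM (unadjusted p = 0.0368), and without animal 30 its unadjusted p was 0.149. Enpp6, a marker of newly forming oligodendrocytes, was 4.39, 11.3 and 5.78 TPM against 4.69, 4.63 and 4.75 TPM. Its change was -0.56 with all libraries (unadjusted p = 0.0456) and -0.12 without animal 30 (unadjusted p = 0.576). The 14 markers of oligodendrocyte progenitors and forming oligodendrocytes that include it summed to 290.0, 380 and 272 TPM against 270.1, 302 and 333 TPM.

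Striatal, central and intercalated amygdala markers summed to 422, 1200 and 602 TPM in stress-low and to 676, 578 and 751 TPM in stress-high, with controls from 458 to 1179 TPM. Animal 30 was the highest of the 6 libraries for 17 of 21 tested markers. Genes of the indirect striatal pathway showed it plainly: Adora2a, an adenosine receptor, measured 2.29, 27.8 and 4.74 TPM against 4.48, 3.36 and 2.59 TPM, and DRD2 1.82, 14.4 and 3.21 TPM against 3.25, 3.62 and 2.88 TPM. PENK, the enkephalin precursor, was 170, 633 and 308 TPM against 346, 285 and 361 TPM. One control library reached the same level, with PENK at 645 TPM. With all libraries 8 of 21 changes were positive (median -0.08) and none was called. Without animal 30, 16 were positive (median 0.40) and Rxrg, Tshz1, Tac1 and Meis2 were called higher, against 3.80% of all genes called in that analysis. Meis2 had 16.9 and 30.5 TPM in the remaining stress-low animals against 40, 37.2 and 60.4 TPM. The position of the punch was not tested as a source of either pattern.

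**Figure D3:**
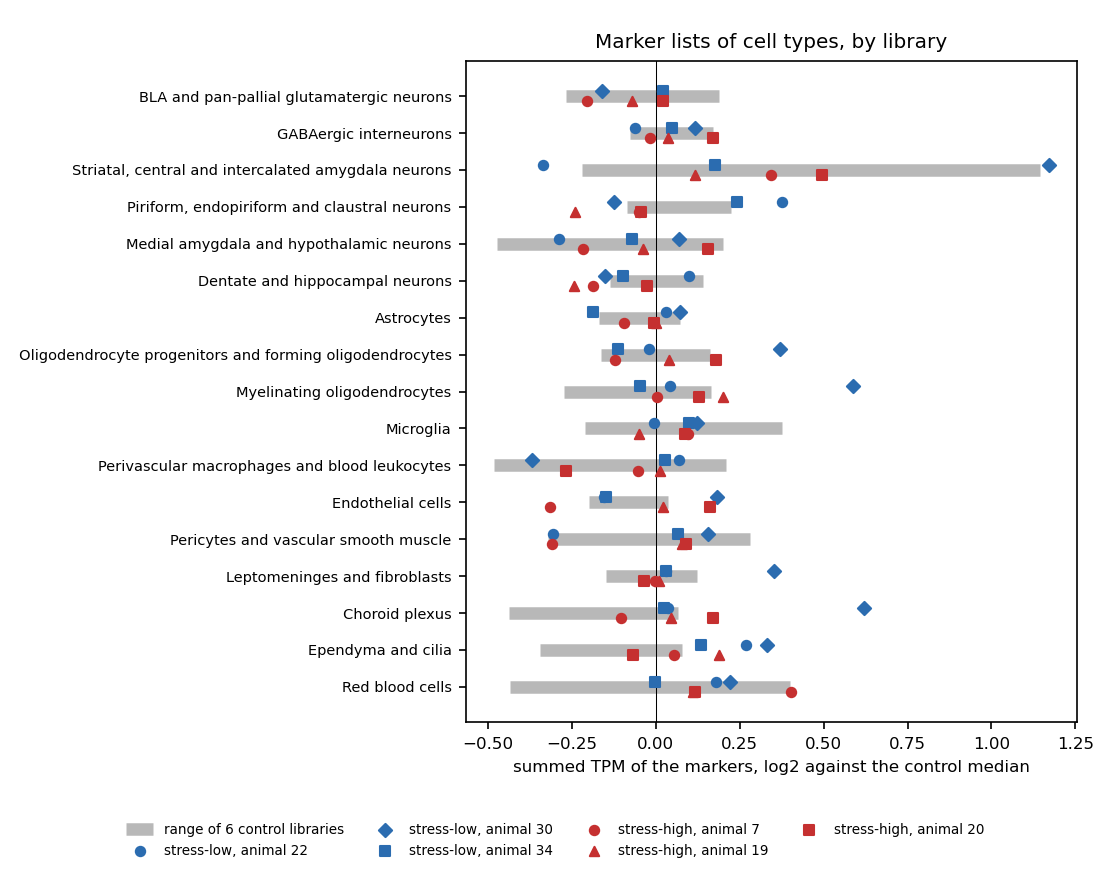
Summed TPM of the markers of 17 cell types as log2 against the control median (horizontal axis), 1 cell type per line. Blue symbols are the stress-low animals, red symbols the stress-high animals and grey bars the range of the 6 controls. The blue diamond, animal 30, lies far to the right for striatal, myelin, oligodendrocyte progenitor and choroid plexus markers. The choroid plexus sum is mostly Enpp2, which is also on the myelin list. The 2 colors overlap in all lists but the narrow case of the leptomeninges.

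In 50 gene families 1961 genes were tested. Of these, 18 were called higher (0.918%, against 0.983% of all genes) and 13 lower (0.663%, against 0.93%), and 29 families had no call. The medians of 48 of the 50 families lay within 0.1 of 0. Families and cell types together made up 67 lists with 2148 genes, of which 20 were called higher (0.931%) and 16 lower (0.745%), so 1.68% of members were called against 1.91% of all genes. Without animal 30 the order turned: 100 of 2160 members were called (4.63%) against 3.80% of all genes. Of the 36 members called with all libraries, 19 were also called without animal 30. The other 17 were Axin2, Cacna1f, Enpp6, Hdac4, Ifnlr1, Igf2, Il1rl2, Inhbb, mrpl11, Pcdh17, Pllp, Rab31, Slc15a2, Sort1, Tnc, Vhl and Wnt16, with an unadjusted p of 0.0579 to 0.576 in that analysis.

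Neurotransmitter receptor and synaptic genes had no call with all libraries. AMPA and kainate receptor genes (22), NMDA and delta receptor genes (9), metabotropic glutamate receptor genes (11) and GABA receptor and transporter genes (22) had no call and medians of -0.01, -0.01, 0.01 and 0.005. GRIA1, an AMPA receptor subunit, measured 210, 214 and 211 TPM against 189, 193 and 228 TPM, and Grin1, the obligatory NMDA receptor subunit, 203, 228 and 210 TPM against 187, 216 and 252 TPM. The spread within stress-high was larger than the difference in both. Gabbr1, a GABA-B receptor subunit, was 338, 416 and 346 TPM against 315, 346 and 409 TPM. Glycine and nicotinic receptors (14), muscarinic receptors and cholinergic enzymes (8), serotonin (16), adrenergic (8) and dopamine genes (5) had no call, with medians from -0.09 to -0.02. Genes of vesicle release (65) and of the postsynaptic density and synaptic adhesion (41) had none either, and in the latter 33 of 41 changes were positive with a median of 0.06, or 28 of 41 without animal 30. In these lists without animal 30, Cacng4, Grik3, Glra2, Htr2a, Unc13c and Rims3 were called higher and Chrm4, Adra1a, Unc13b and Lrrtm3 lower. Of all genes, 3.80% were called in that analysis.

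Among neuropeptide genes, 26 precursors and 8 opioid genes had no call with all libraries. Without animal 30, Nts, Tac1, Cbln4 and Nxph3 were called higher and Grp and Chgb lower among the precursors, and the opioid receptor gene OPRM1 was called higher. Of all genes, 3.80% were called without animal 30. The opioid sum, driven by PENK, was 226, 715 and 371 TPM against 412, 352 and 442 TPM, and 249 to 717 TPM in controls. Of 30 neuropeptide receptor and peptidase genes, 1 was called, LNPEP, and 18 changes were positive (median 0.07). The sum of this list did not overlap in CPM (454, 468 and 472 against 478, 477 and 513), though it did in TPM, and without animal 30 Adcyap1r1, LNPEP and Ntsr1 were called higher and Vipr2 lower. The oxytocin receptor Oxtr was 1.22 to 1.54 TPM against 1.17 to 1.62 TPM and the vasopressin receptor Avpr1a 0.7 to 1.02 TPM against 0.56 to 0.77 TPM, neither called. The relaxin receptor Rxfp1 was 10.7, 12.9 and 17.3 TPM against 13.3, 16.4 and 18.4 TPM. In the corticotropin-releasing hormone system (5 tested) Crh was 1.32 to 1.7 TPM against 0.93 to 1.57 TPM and its receptor Crhr1 16.9 to 17.8 TPM against 13 to 20.6 TPM, with no call.

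Corticosteroid receptors and glucocorticoid-induced genes (24) had no call. The glucocorticoid receptor Nr3c1 measured 52.1, 61.2 and 47.1 TPM against 46.8, 54.1 and 62.1 TPM and the mineralocorticoid receptor Nr3c2 11.4, 11.1 and 9.72 TPM against 9.03, 9.75 and 10.6 TPM. Fkbp5, a co-chaperone that glucocorticoids induce, was 21.3, 20.3 and 17.4 TPM against 20.4, 18.7 and 20.4 TPM. The groups overlapped in all 3 genes. The sum of the list was lower in all 3 stress-high libraries (2113, 2063 and 2052 against 1959, 1895 and 1943 TPM) but was carried by 1 chaperone gene, Hsp90aa1 (1631, 1545 and 1611 against 1488, 1439 and 1435 TPM), while 16 of the 24 changes were positive. It overlapped in CPM. Immediate early genes (34), which neurons switch on with activity, had no call and a median of 0.03. Fos was 3.32, 4.57 and 4.16 TPM against 5.84, 3.14 and 4.88 TPM and Arc 15.7, 17.1 and 14.9 TPM against 14.8, 12.4 and 20.7 TPM.

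Growth factor and hormone-related families gave 0 to 2 calls each. Of 13 neurotrophin genes only Sort1, a sorting receptor for proneurotrophins, was called, at 185, 183 and 174 TPM against 175, 204 and 213 TPM (log2 change 0.17, SE 0.08, unadjusted p = 0.0477), with animal 7 among the stress-low values. Bdnf was 24.7, 12.3 and 17.8 TPM against 14, 17.3 and 16.4 TPM. Of 24 steroid receptor and coactivator genes Ncoa3 was called, of 17 activin genes Inhbb, and of 35 insulin and IGF genes Rab31 (higher) and Igf2 (lower). In the insulin group 21 of 35 changes were positive with a median of 0.03. The sum did not overlap in CPM (1947, 1927 and 1935 against 1960, 1970 and 2040), by a narrow gap. It did overlap in TPM (1277, 1341 and 1220 against 1165, 1257 and 1429). Akt1, a kinase downstream of the insulin receptor, was 87.8 to 99.9 TPM against 88.5 to 103 TPM. Fibroblast growth factor genes (17) had no call. In the Wnt pathway (41) the ligand Wnt16 was called higher, at 4.03, 3.58 and 3.19 TPM against 3.91, 4.82 and 5.47 TPM (unadjusted p = 0.0371), and Axin2, a feedback target, lower, at 13.2, 14.7 and 10.4 TPM against 9.13, 10.4 and 12.5 TPM (unadjusted p = 0.0428). Both overlapped between the groups.

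The study reported a set of differentially expressed genes for this contrast with its own tool, EBSeq, which was not used here. By edgeR and by DESeq2 no gene passed adjustment, as given above. The study draws the named genes of its set as a heatmap and plots Ncoa3, Inhbb, Rab31, Rarres2 and Zfp106 singly. Its text also names Sst, Pcdh17, Rasl10b and Rin1 among its amygdala genes. Ncoa3 was 8.28, 10.4 and 9.19 TPM against 11.4, 10.7 and 12.6 TPM (log2 change 0.36, SE 0.09, unadjusted p = 0.00188). Inhbb, the activin and inhibin beta-B subunit, was 3.03, 3.1 and 2.38 TPM against 3.67, 4.82 and 4.44 TPM (log2 change 0.65, SE 0.28, unadjusted p = 0.0382). Both were separate between the groups, but without animal 30 the p of Inhbb was 0.0609. Rab31 was 46.7, 45.2 and 43.1 TPM against 46.2, 47.1 and 54.6 TPM and overlapped (log2 change 0.17, unadjusted p = 0.0128, or 0.0658 without animal 30). Zfp106 was 71.5, 74.5 and 69.1 TPM against 68.1, 77.1 and 83.5 TPM and was not called (unadjusted p = 0.0613).

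Excitability genes were alike apart from 2 calls with all libraries. Of 78 genes of voltage-gated potassium channels and their relatives, Kcnh1, which encodes an ether-a-go-go channel, was called higher, at 24.8, 29.3 and 28.1 TPM against 26.2, 34.6 and 34.4 TPM (log2 change 0.25, SE 0.10, unadjusted p = 0.0210). Of 34 sodium and calcium channel genes, Cacna1f, an L-type channel of the retina, was called lower at a level near 0 (0.1 to 0.14 TPM against 0.05 TPM in all stress-high libraries). Regulators of G protein signaling and adenylyl cyclases (53) gave RGS6 higher, at 8.03, 8.02 and 7.09 TPM against 7.5, 10.3 and 11.7 TPM (log2 change 0.38, SE 0.13, unadjusted p = 0.0118). In Kcnh1 and in RGS6 the value of animal 7 lay among those of the stress-low animals. Without animal 30, 8 potassium channel genes were called higher and 1 lower, and 2 sodium and calcium channel genes were called higher. In the G protein list RGS6 was then called higher and Pde2a, Prkaa1 and Pde1a lower. Of all genes, 3.80% were called in that analysis.

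Adhesion molecules held 4 calls among 78 cadherin and protocadherin genes, in both directions, where 1.91% of all genes were called. Pcdhb14 and Pcdhb15, neighbors in the protocadherin beta cluster, whose members give neurons combinatorial surface identities, were higher: Pcdhb14 was 1.98, 2.2 and 2.09 TPM against 3.15, 2.88 and 2.95 TPM (log2 change 0.57, SE 0.18, unadjusted p = 0.00684), and Pcdhb15 was 1.44, 2.14 and 2.12 TPM against 2.52, 2.22 and 4.19 TPM (log2 change 0.67, SE 0.23, unadjusted p = 0.0109). Both were separate between the groups. Members of this cluster are similar in sequence, and reads could be split between them, so the 2 values are not independent and are uncertain. Cdh7, a type II cadherin, was lower, at 5.83, 5.77 and 4.91 TPM against 4.08, 3.5 and 4.34 TPM (log2 change -0.42, SE 0.16, unadjusted p = 0.0209). Pcdh17, a delta protocadherin, was 21.3, 23.8 and 19.2 TPM against 15.3, 17.1 and 19.8 TPM (unadjusted p = 0.0334, or 0.0995 without animal 30), with overlap. The family had 49 of 78 changes above 0 and a median of 0.07. Semaphorins, plexins, ephrins and Eph receptors (65) had no call and a median of 0.04 with all libraries. Without animal 30, 45 of the 65 changes were positive and Nrp2, Robo1, Unc5d, Plxnb2 and Sema3e were called higher, against 3.80% of all genes called in that analysis.

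In the extracellular matrix, 1 of 37 collagens was called (Col6a1) and 1 of 30 genes of perineuronal nets and matrix remodeling, the glycoprotein Tnc, at 1.63, 2.28 and 1.67 TPM against 1.09, 1.01 and 1.62 TPM (log2 change -0.55, SE 0.23, unadjusted p = 0.0282). Bcan, a core proteoglycan of the nets, was 130 to 157 TPM against 121 to 154 TPM. The called matrix genes were thus both lower and both of low level, while the abundant net gene overlapped. Without animal 30 the p of Tnc was 0.118.

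Solute carriers (273 genes tested) had 3 called higher and 1 lower. Besides Slc17a9, Slc16a13 of the monocarboxylate transporter family was 4.89, 5.25 and 5.01 TPM against 5.45, 6.17 and 7.25 TPM (log2 change 0.35, SE 0.12), and Slc15a2, a peptide transporter of astrocytes, 20.1, 18.8 and 19.7 TPM against 21.1, 21.9 and 24.1 TPM (log2 change 0.24, SE 0.09, unadjusted p = 0.0212). Slc4a11, of the bicarbonate transporter family, was 1.92, 1.72 and 2.07 TPM against 1.03, 0.84 and 1.45 TPM (log2 change -0.74, SE 0.26, unadjusted p = 0.0115). All 4 were separate between the groups. Slc1a2, the main glutamate transporter of astrocytes, was 449, 491 and 390 TPM against 445, 499 and 494 TPM and not called.

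Motor and traffic genes followed the same pattern of few calls. Of 47 kinesin and dynein genes, Kif6 was higher, at 0.39 to 0.5 TPM against 0.63 to 1.14 TPM, and Kif15 lower, as above. Of 52 Rab GTPases only Rab31 was called. Of 61 genes of DNA methylation and histone marks Hdac4, a class II histone deacetylase, was called higher, at 11.3, 12.2 and 11.1 TPM against 11.5, 12.3 and 14.8 TPM (log2 change 0.19, SE 0.09, unadjusted p = 0.0441). The groups of Hdac4 overlapped.

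Genes of protein synthesis and energy metabolism had medians near 0. Cytosolic ribosomal proteins (85), translation factors (60), nuclear-encoded respiratory chain genes (88), heat shock proteins and cochaperones (69), cholesterol synthesis (24), glycolysis (17) and 13 mitochondrially encoded genes had no call, with medians from -0.01 to 0.06. Signs were uneven in some of them: 29 of 88 respiratory chain changes were positive (14 without animal 30, median -0.08), 36 of 85 of the ribosomal proteins (17 without it) and 7 of 17 in glycolysis (1 without it). Mitochondrially encoded genes took 14.8%, 15.7% and 17.1% of TPM in stress-low and 18.4%, 16.4% and 13.8% in stress-high, with wide overlap. Among 76 mitochondrial ribosomal proteins mrpl11 was called lower, at 45.6, 49.5 and 43.4 TPM against 35.2, 38 and 39.1 TPM (log2 change -0.26, SE 0.12, unadjusted p = 0.0455). In the proteasome (49) the assembly chaperone PSMD9 was called higher, at 28.1, 32.3 and 27.3 TPM against 32.9, 33.7 and 32.4 TPM (unadjusted p = 0.0203). The sums of both families were lower in every stress-high library in TPM and overlapped in CPM.

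Immune families had 3 calls. Among 63 tested of 174 cytokine, chemokine and receptor genes, Il1rl2, the receptor of interleukin 36, was higher, at 0.58, 0.56 and 0.59 TPM against 1.1, 0.58 and 1.56 TPM, and Ifnlr1 and Il18 were lower. Il18, an inflammasome cytokine, was 3.34, 2.72 and 5.46 TPM against 2.08, 2.86 and 1.97 TPM (log2 change -0.70, SE 0.31, unadjusted p = 0.0423). Only Ifnlr1 was separate between the groups, and its 3 stress-high values lay inside the control range. Complement (19) and interferon-induced and MHC genes (70) had no call, with medians of 0.02 and -0.07, and the MHC light chain B2m was 150 to 159 TPM against 147 to 156 TPM.

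The remaining families were the circadian clock (20 genes, no call, median 0.02), endocannabinoid genes (11, no call, 0.007), and hypoxia and angiogenic factors (15), where Vhl, the ubiquitin ligase subunit that degrades hypoxia-inducible factors, was lower at 21.8, 23.6 and 20 TPM against 19, 16.3 and 19 TPM (log2 change -0.21, SE 0.09, unadjusted p = 0.0396). Of 1168 olfactory and vomeronasal receptor names 1001 were listed at 0 in all 6 libraries and 7 were tested. One of them, Olr59, was called higher, at 1.76, 3.12 and 1.66 TPM against 2.09, 4.04 and 3.79 TPM (unadjusted p = 0.0310). Its groups overlapped through animal 30.

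**Figure D4:**
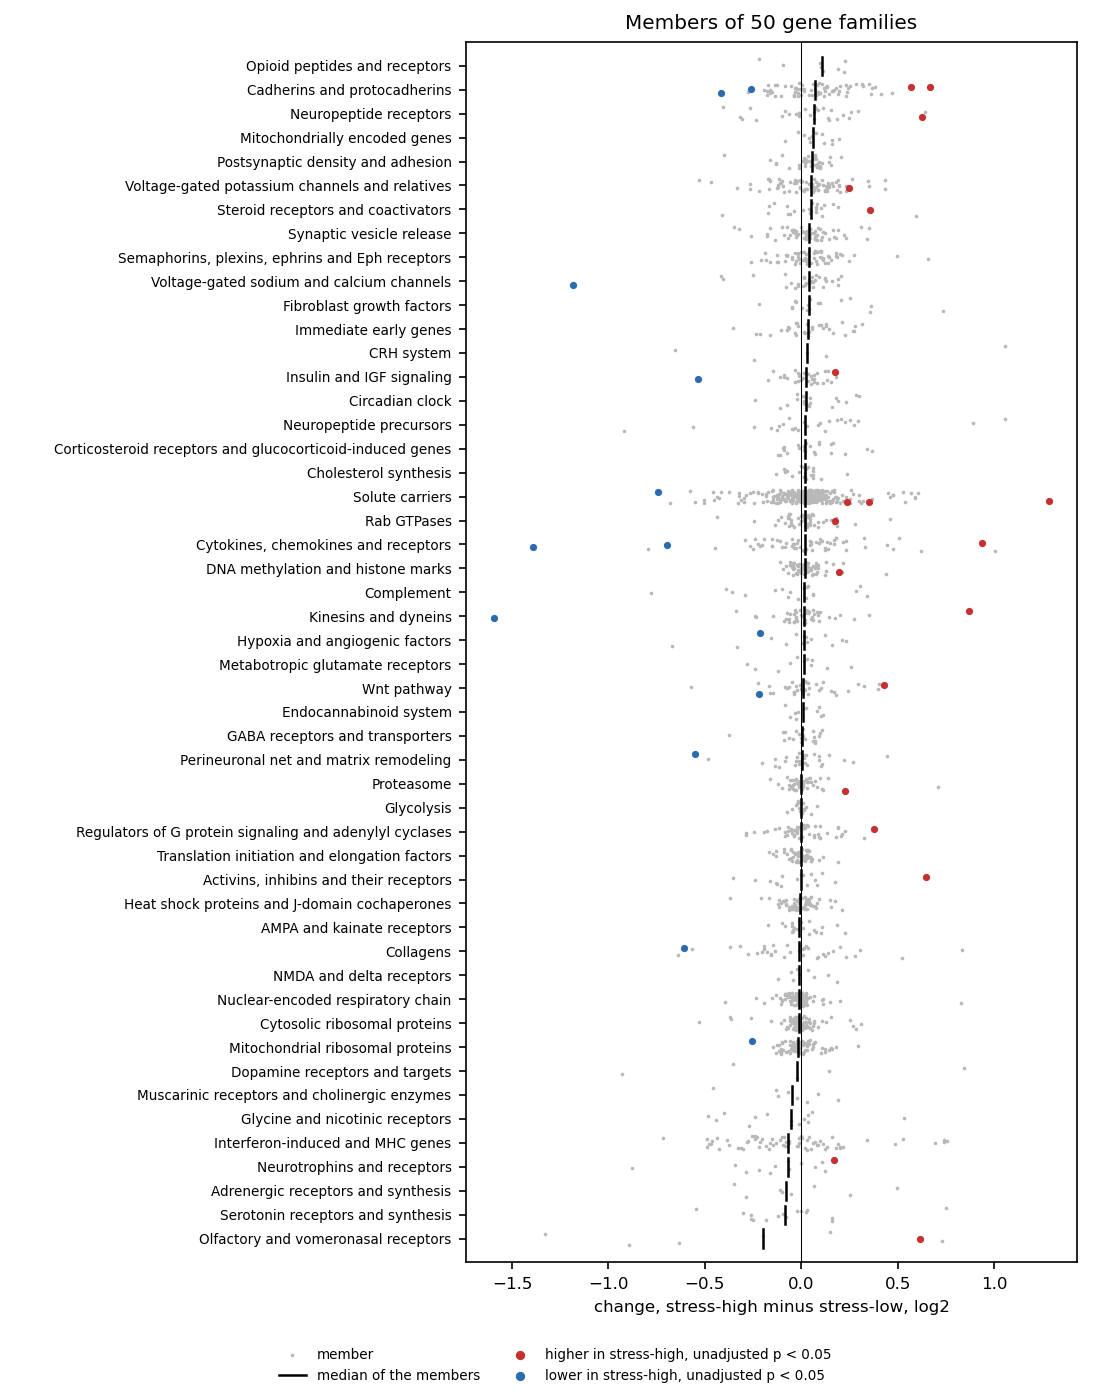
Log2 change (stress-high minus stress-low, horizontal axis) of every tested member of 50 gene families, 1 family per line, ordered by the median of the members (black bar). Red and blue points are members with an unadjusted p under 0.05 (18 higher, 13 lower) and small grey points all others; the medians of 48 families lie within 0.1 of 0, and 29 families have no colored point.

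Names that the annotation gives to more than 1 gene identifier were read as the sum of their identifiers. There were 600 such names, 366 of them tested, and 5 had an unadjusted p under 0.05 as a sum. For 29 names the sum and the separate identifiers fell on different sides of that threshold. Rpl36, a ribosomal protein, was the clearest: as a sum it measured 381, 370 and 378 TPM against 382, 360 and 354 TPM (log2 change 0.01, unadjusted p = 0.947), while its minor identifier ENSRNOG00000031947 alone, with 1.43 to 11 TPM, had a change of -1.67 (unadjusted p = 0.00145). Rnf11l was split otherwise. Its 2 identifiers had equal values in animals 22 (69.8 TPM each) and 30 (72.3 TPM each), and in animal 34 the first had 110 TPM and the second 0. The sum, 140, 145 and 110 TPM against 126, 132 and 138 TPM, had a change of 0.05 (unadjusted p = 0.532), and the second identifier alone, at 0 to 0.05 TPM in stress-high, a change of -10.68. Rin1, Ndp, Col4a3, Vwa5a, Rasl10b and RGD1565183 likewise had a p under 0.05 in 1 identifier and none in the sum.

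The same contrast in the dentate gyrus (DG) was used to ask where the BLA differed. The DG libraries came from the same animals except that animal 33 stood in place of animal 30 in stress-low. The difference between the BLA change and the DG change was tested in 15152 genes by edgeR. No gene passed an adjusted p of 0.05 and 288 (1.90%) had an unadjusted p under 0.05, 100 with the change more positive in the BLA and 188 with the change more positive in the DG. DESeq2 also gave none at an adjusted p of 0.05. This fit did not pair the regions of an animal, although 5 of the 6 stress animals of each region were the same rats. With the animal as a block, an alternative chosen after seeing the data, the contrast rested on 3 stress-high and 2 stress-low rats, 523 genes had an unadjusted p under 0.05 (142 of them among the 288) and 0 passed adjustment. The smallest p was that of Cartpt, a neuropeptide precursor, at 2.35, 4.64 and 4.11 TPM against 2.29, 2.13 and 1.14 TPM in the BLA and 5.28, 1.47 and 2.8 TPM against 14.7, 14.4 and 17.1 TPM in the DG (difference of log2 changes -3.19, SE 0.73, unadjusted p = 0.000206).

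Of the genes led by the BLA contrast, Atf7 and LNPEP were among the 5 with the smallest p. Atf7 was 6.8 to 7.96 TPM against 4.22 to 6.18 TPM in the BLA and 10.5 to 11.6 TPM against 11.8 to 13.9 TPM in the DG (difference -0.68, SE 0.16, unadjusted p = 0.000351). LNPEP was higher in stress-high in the BLA and lower in the DG, where it measured 13.2, 16.8 and 13.4 TPM against 13.8, 10.5 and 10.9 TPM (difference 0.90, SE 0.24, unadjusted p = 0.00107). Rxfp1 had a difference of 1.15 (SE 0.30), with a DG level of 3.49 to 4.35 TPM against 1.43 to 2.6 TPM. The gene model RGD1560687 (difference -3.43) rested on BLA levels of 0 to 1.48 TPM. With the animal as a block these 5 genes had differences of -2.70 (Cartpt), -0.61 (Atf7), 0.81 (LNPEP), 1.22 (Rxfp1) and -4.22 (RGD1560687).

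Of the 286 genes called in the BLA, 239 were tested in the DG, and 176 of them (73.6%) had the same direction there, against 53.9% of all genes tested in both regions. An unadjusted p under 0.05 in the DG was reached by 25 of the 239 (10.5%), against 3.13% of all, and 24 of these 25 had the same direction, LNPEP being the exception. The regions were mostly taken from the same animals, so the DG is not an independent sample of stress-low and stress-high rats. The genes of this set were chosen after their values were seen. They included Hydin (BLA -1.22, DG -0.69), Ccdc30 (-0.36 and -0.30), Cmc1 (-0.84 and -0.77), Inhbb (0.65 and 0.62) and Slc15a2 (0.24 and 0.31), all named above.

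Others of the 24 were Zfp72, a zinc finger gene, at 1.91, 3.6 and 3.48 TPM in BLA stress-low (BLA -1.29, DG -2.36), Trhr2, a receptor of thyrotropin-releasing hormone, at 1.62, 1.24 and 0.55 TPM (1.46 and 2.02), and Mis18a, which takes part in centromere assembly, at 2.97, 0.66 and 3.46 TPM (-2.06 and -2.28). These had large changes at low levels. Abhd14a (0.61 and 0.70), Prkd2, a protein kinase D (0.55 and 0.55), and Tsen34, a subunit of the tRNA splicing endonuclease (-0.28 and -0.22), had smaller changes at 2.69 TPM or more in every BLA stress-low library.

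**Figure D5:**
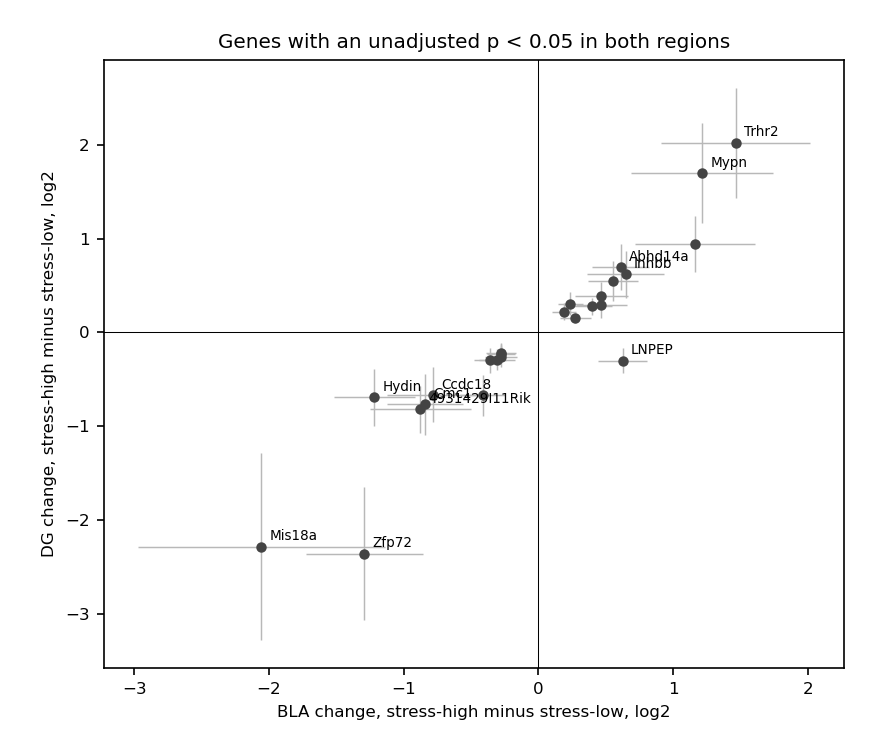
Log2 change (stress-high minus stress-low) in the DG (vertical axis) against that in the BLA (horizontal axis) for the 25 genes with an unadjusted p under 0.05 in both regions. Bars are standard errors of the log2 changes; 24 genes lie in the quadrants of equal direction and LNPEP lies alone in the quadrant of a higher BLA and a lower DG value in stress-high.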

How the data were processed

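The authors sequenced poly-A RNA from BLA and DG punches, mapped the reads to the Rn5 build under Ensembl gene models (STAR 2.6.0a) and estimated gene abundance (RSEM 1.3.1). The expected counts and TPM values deposited by the authors are estimates per gene identifier, in which reads shared by several genes are divided. Genome positions and sequences are not given, since no annotation of Rn5 was used here.

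Expected counts were summed over identifiers that share a name (case ignored) and rounded to whole numbers. The quasi-likelihood F-test of edgeR 4.0.16 (R 4.3.3) was run with TMM scaling, after the filterByExpr filter with a minimum count of 10, on the 3 BLA group means in 1 fit, with Benjamini-Hochberg adjustment. The study's own tool, EBSeq, was not used. Log2 fold changes are stress-high minus stress-low, computed from the deposited counts, and levels are the deposited TPM. The difference between BLA and DG was tested as an interaction, without a block for the animals that gave both regions. Alternatives were DESeq2 1.42.0, limma 3.58.1 on log2(TPM + 1) and log2(TPM + 0.1), other scalings, filters, controls and groupings of identifiers, a covariate for animal numbers above 20, and leaving out each library. Tests were tried on simulated counts first.

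BLA control animal 2 and DG control animal 35 were left out. The BLA library of animal 35 has a treatment label that conflicts with its name and was taken as a control by its name. It enters the estimate of the spread and also the control ranges, medians and means given here. It belongs to neither stress group. Replicate numbers only number the libraries. Nothing more than animal numbers separates the libraries of a group, and precision is limited by 3 animals in each stress group.

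The text names the 12 named genes of smallest unadjusted p in each direction, every list member with an unadjusted p under 0.05, up to 4 abundant members of each list and the defining cell-type markers, up to 8 names with several identifiers whose call depends on summing, and the 5 genes of smallest p in the BLA against DG test. Other genes that the text names (among them Oxtr, Avpr1a, Nr3c2, Fkbp5, Fos, Arc, Bdnf, Lmo3 and the genes called in both regions) were added after their values were seen. The members, lists and tests were chosen with earlier results of these data known.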

Additional observations from a re-analysis of the deposited data

Results flagged for a closer look

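Among the 41 groups of values tested for the 6 BLA controls, 4 held 1 library far from the others, where chance gives about 1 in 20. The gap to the nearest library, as a share of the whole range, was 0.763 for the summed striatal, central and intercalated amygdala markers (458 to 1179 TPM, next-highest 629), 0.704 for choroid plexus markers (33.6 to 47.6 TPM, next-lowest 43.5), 0.630 for Neil2 (0.84 to 1.3 TPM) and 0.686 for Tmc4 (0.21 to 0.56 TPM). The choroid plexus sum was mostly Enpp2, also a myelin marker, at 29.7 to 44.1 TPM in the controls.

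The change between stress-low and stress-high differed between BLA and DG, at an unadjusted interaction p under 0.05 by edgeR, for 288 genes, of which 15 are among the genes chosen for description here, and for 0 genes after adjustment. With the animal as a block, Dhx34, Hdac4, Neil2, Slc17a9 and Sox6 of these 15 had an unadjusted p of 0.0546 to 0.107. The BLA minus DG difference of log2 changes was negative for Atf7 (-0.68), Cartpt (-3.19), Neil2 (-1.75), RGD1560687 (-3.43), Rarres2 (-0.58) and Vhl (-0.25). It was positive for Dhx34 (0.47), Hdac4 (0.29), Ifnlr1 (3.92), Kif6 (1.16), LNPEP (0.90), Ncoa3 (0.27), Rxfp1 (1.15), Slc17a9 (1.14) and Sox6 (0.56).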

How the results depend on the processing

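No gene passed an adjusted p of 0.05 under any alternative but limma on log2(TPM + 0.1), which gave 2 unnamed identifiers, ENSRNOG00000040595 and ENSRNOG00000041525, listed at 0 in every stress-low library and at 1.21 to 2.56 TPM in stress-high. Both were under the count filter of the edgeR test. Genes with an unadjusted p under 0.05 numbered 286, and 458 with no filter on low counts, where 21045 genes were tested. With animal numbers above 20 as a covariate they numbered 510 (78 of the 286 shared). That covariate has 1 value in all stress-high and the opposite value in all stress-low libraries, so only the controls tell it apart from the contrast. Leaving out 1 library gave 215 to 575 genes, the highest without animal 30. Limma on log2(TPM + 1) put 72.1% of its 312 genes lower in stress-high, against 48.6%. The cause was not tested. The replicate block gave 307 genes in the 2 stress groups, 171 of them shared; the deviations of same-numbered libraries had correlations of 0.02, -0.07 and -0.04, so the numbers do not pair them.

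Called list members numbered 36, 70 with the covariate and 26 to 100 without 1 library, with 63 without animal 7 and 100 without animal 30. The BLA against DG test gave 288 genes, 174 with all mapped control libraries, 523 with the animal as replicate block (chosen after seeing the data) and 238 to 463 without 1 library, the highest without BLA animal 30. Genes whose groups did not overlap in TPM, higher in stress-high, numbered 163, 500 in TMM-scaled CPM, and 259 to 1004 without 1 library, the highest without animal 7. Those lower numbered 702 and 999 to 3757 without 1 library, the highest without animal 20; fewer libraries overlap less by construction.

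Of 824 alternative values for the 52 named genes with an unadjusted p under 0.05, 635 stayed under it, 189 did not and 0 changed direction. Of 1072 alternative medians of the 67 lists, 10 moved by more than the median standard error of their members.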
